A study of Mus musculus with 8 samples.

Results

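The acrosin immunoprecipitation (ACR IP) is the control pull-down of a study of the chromatoid body, and it is set here against the whole testis lysate from which the fractionation started. Of the 2543 rows of the table that holds both libraries, the 1564 with at least 5 FPKM (fragments per kilobase of feature and per unit of library size) in the lysate were kept, out of 5985 features in the ACR IP, pellet and supernatant tables of the series. Of 2105 features at a matching lysate floor in the pellet table, 506 had no row in the ACR IP table, and the reason was not tested. The floor itself was set on the lysate value alone, so it does not depend on the ACR IP value. Just below it stood Gzf1, with 1.26 FPKM in the ACR IP and 4.99 FPKM in the lysate, and Ubfd1, listed at 0 in the ACR IP with 4.99 FPKM in the lysate. Just above it stood Ercc3, with 4.02 FPKM in the ACR IP and 5.03 FPKM in the lysate, and Arc, with 0.870 FPKM in the ACR IP and 5.05 FPKM in the lysate.

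The study sequenced small RNA, cut from a gel at 19 to 33 nt, from testes of C57BL/6 mice at least 6 weeks old in 8 libraries, of which 1 ACR IP library and 1 lysate library are compared here. The ACR IP library was made from cells of collagenase-dissociated seminiferous tubules that were cross-linked with formaldehyde and sonicated in RIPA buffer. Per the protocol, the resuspended second pellet was incubated with Dynabeads-IgG bound to an acrosin antibody (Santa Cruz), while another label of the same sample calls it a control ACR IP from testis lysate. The lysate library holds the small RNA of the same kind of cross-linked cells with no antibody step, and both come from adult testis with no mutation or treatment named. With 1 library per group there is no replicate check, so every difference below compares these 2 libraries and not the conditions, and no test across genes was made.

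The chromatoid body is a granule of RNA and protein beside the nucleus of round spermatids, and it holds PIWI proteins, piRNAs and the RNA helicase MVH (DDX4). Acrosin is a protease of the acrosome, the secretory vesicle of the sperm head, and the labels name this pull-down a control. MicroRNAs are about as long as siRNAs and guide Argonaute proteins through a seed near their 5′ end, whereas piRNAs are slightly longer, guide PIWI proteins and arise in great number from long genomic clusters.

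The mature microRNAs on which the read counts below turn are shown first, with the seed (bases 2 to 8) in capitals, as RefSeq gives them for the build GRCm38.p6. The deposited values are per hairpin gene, so they do not say which arm was sequenced, and the 5p arm is shown. The first 3 share a seed and belong to the miR-34 and miR-449 family, abundant in meiotic and postmeiotic germ cells.
miR-34a-5p: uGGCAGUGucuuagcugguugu
miR-34b-5p: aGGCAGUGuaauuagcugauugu
miR-449a-5p: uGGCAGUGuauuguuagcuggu
The next 3 carry the let-7 seed, shared by a large family of microRNAs of differentiated cells, and are shown because members with 1 seed differed in how many of their reads the ACR IP held.
let-7b-5p: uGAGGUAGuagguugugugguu
let-7d-5p: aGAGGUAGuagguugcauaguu
let-7g-5p: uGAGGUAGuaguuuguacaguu
Another seed is common to Mir17, Mir20a and Mir93 of the miR-17-92 group, of which the first 2 had ACR IP reads and Mir93 was listed at 0.
miR-17-5p: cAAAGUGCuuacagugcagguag
miR-20a-5p: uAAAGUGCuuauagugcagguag
miR-93-5p: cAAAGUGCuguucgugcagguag
The last pair has different seeds but lies side by side in the intron of 1 host gene, and is shown because 1 ACR IP read was found over both genes.
miR-191-5p: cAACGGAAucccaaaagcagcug
miR-425-5p: aAUGACACgaucacucccguuga

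Most small RNA features of the lysate had little or no signal in the ACR IP. Of the 1564 features, 1012 were listed at 0 in the ACR IP, which is 64.7% of them (exact binomial 95% interval 62.3 to 67.1). Another 453 (29.0%) were above 0 and at least 2-fold lower in the ACR IP than in the lysate, 36 (2.3%) were at least 2-fold higher, and 63 lay within 2-fold. Over the 552 features above 0, the median log2 ratio of ACR IP to lysate was −3.64. An exact 0 in such a table can be a failed estimate, and genes that most cells use were among the zeros, so a feature at 0 is only said to be listed there.

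**Figure D1:**
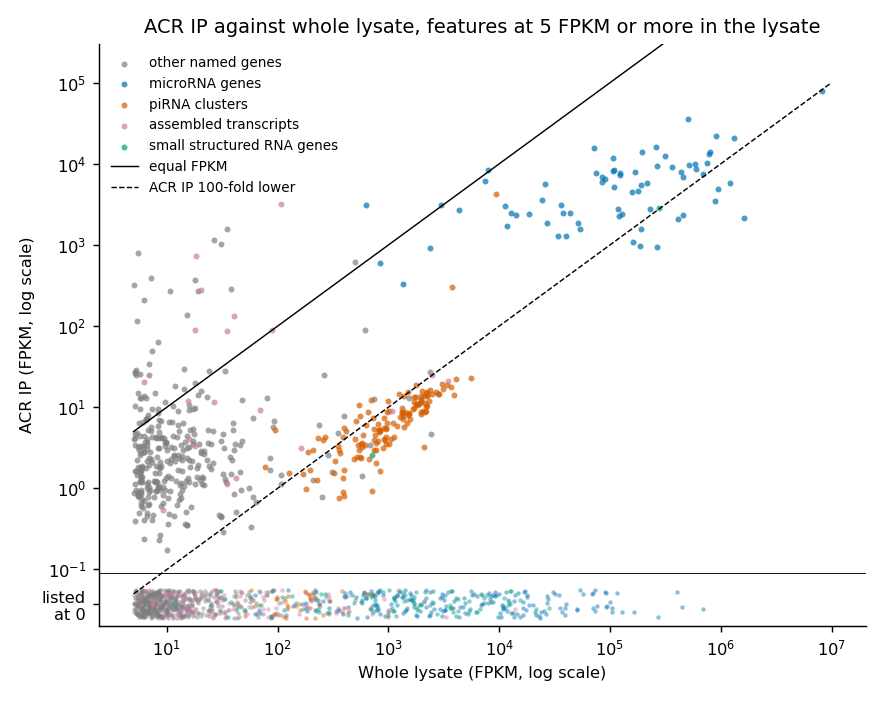
ACR IP FPKM (log axis) against whole lysate FPKM (log axis) for the 1564 features at 5 FPKM or more in the lysate, 1 point per feature, coloured by class, with the features listed at 0 in the ACR IP in the strip at the bottom. Most piRNA clusters lie below the line of an ACR IP value 100-fold lower, while the 36 features that were at least 2-fold higher in the ACR IP, mostly named genes, lie above the line of equal FPKM.

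The depth behind these values could be read from the values themselves. The FPKM of microRNA genes fell on whole multiples of 1 read once the length of each hairpin was taken into account, in 71 of 71 genes above 0 in the ACR IP and in 173 of 200 genes with fewer than 200 reads in the lysate (within 0.01 of a whole read). At equal FPKM, 1 ACR IP read stood for 10 lysate reads. Over the features whose reads could be derived, the lysate held 1184 reads for each ACR IP read, so the scale of the 2 columns is not that of the reads in these classes.

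Directions therefore depend on how the columns are scaled. As deposited, 7.36% of the features above 0 and past 2-fold were higher in the ACR IP. With both columns scaled to the same sum, which shifts every log2 ratio by 5.92, that share was 72.5%. With ratios centred on their median, a shift of 3.64, it was 47.2%. The 64.7% of features listed at 0 have no ratio and are outside these shares. Of all 1564 features, 2.3% were higher as deposited. The order of the class medians over features above 0 does not depend on the scale, and the order of the rates in reads per 1000 lysate reads given below does not either.

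The classes differed in both the share listed at 0 and the ratio. Of 291 microRNA genes, 220 were listed at 0, 65 were at least 2-fold lower and 1 was at least 2-fold higher in the ACR IP, with a median log2 ratio of −4.71 over the 71 above 0. Of 180 piRNA clusters, 42 were listed at 0 and the other 138 were all at least 2-fold lower, with a median of −7.39, that is a lysate value 168-fold above that of the ACR IP. These medians leave out the features at 0, and with those included at a pseudocount of 1 FPKM the order of both classes turned, with −10.41 for microRNA genes and −7.20 for piRNA clusters. With both columns scaled to the same sum, 107 of these 138 clusters were still at least 2-fold lower. The ACR IP then had the higher value in 7 clusters, 54 of the 71 microRNA genes and 299 of the 321 named genes above 0. These counts leave out features at 0, and the detection limit sets them in part. At the median depth of named genes with 5 to 10 lysate FPKM, 1 ACR IP read gives a log2 ratio of −2.70. The shift of 5.92 alone places such a gene above the lysate. Clusters with derived reads had a median of 6572 lysate reads and microRNA genes 47, so the classes are not compared at like depth. Of 889 other named genes, 568 were listed at 0, 237 were lower and 28 were higher, with a median of −2.38. Small structured RNA genes, the small nucleolar and spliceosomal RNAs, had 77 of 79 listed at 0. Assembled transcripts, which the authors' table lists without a gene name, had 105 of 125 listed at 0, 11 lower and 7 higher.

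**Figure D2:**
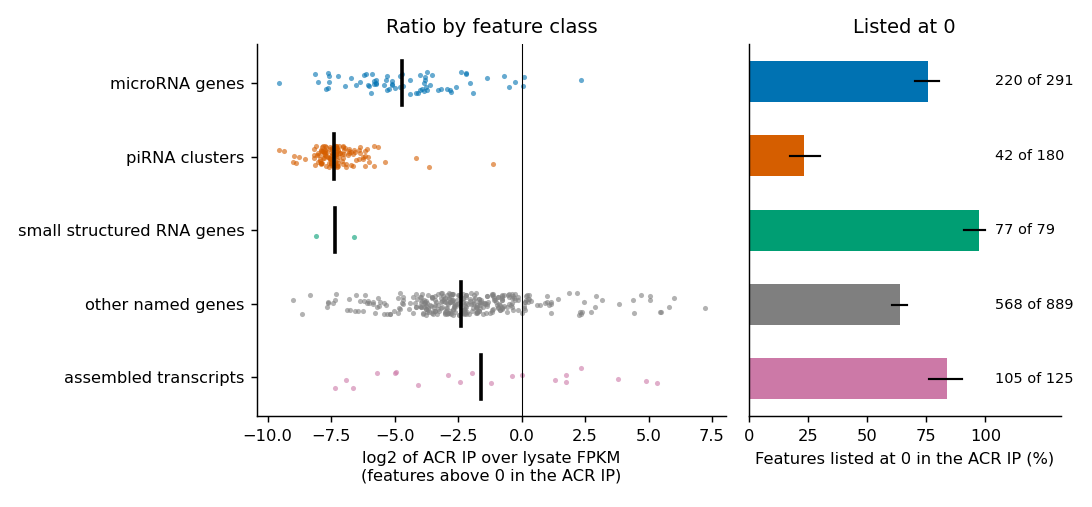
Left, log2 of ACR IP over lysate FPKM for the features above 0 in the ACR IP, 1 point per feature in 5 classes, with the median as a black bar. Right, percent of each class listed at 0 in the ACR IP, with the exact binomial 95% interval as a line and the counts beside it. The piRNA clusters combine the lowest share listed at 0 (42 of 180) with ratios gathered about −7.39, while the 889 named genes spread from about −9 to above 7.

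For microRNA genes the ACR IP held a small number of reads. Reads could be derived for 288 of the 291 genes, and these summed to 294 reads in the ACR IP against 182478 reads in the lysate. That is 1.61 ACR IP reads per 1000 lysate reads, with an exact Poisson 95% interval of 1.43 to 1.81, where equal FPKM would have given 18248 reads. All such intervals cover counting error only, since reads amplified by PCR are not independent molecules. Of the 288 genes, 217 were listed at 0, 22 had 1 read, 14 had 2 reads and 35 had 3 or more, of which 6 had 10 or more.

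A zero carried information for less than all of those genes. At equal FPKM, 117 of the 217 genes listed at 0 would have had fewer than 3 ACR IP reads, so a lower level was not detectable at this depth, and the other 100 would have had 3 or more. Among those 100 were Mir425, with 0 reads in the ACR IP and 4953 reads in the lysate, Mir93, with 0 and 3591 reads in the ACR IP and lysate, and Mir881, an X-linked testis microRNA, with 0 reads in the ACR IP and 1490 reads in the lysate. Mir10b was listed at 0 in the ACR IP with 1432 reads in the lysate, and Mir19a with 1056 reads in the lysate. Equal FPKM is a much higher mark than the rate of the class itself. Among the genes at 0, only Mir425 and Mir93 had an interval below the pooled rate of 1.61 per 1000. The other zeros, those of Mir881, Mir10b and Mir19a among them, are not shown to be lower than that rate.

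The microRNAs with the most ACR IP reads were only in part those with the most lysate reads. Of the 6 genes with 10 or more ACR IP reads, Mir34c, Mir449a and Mir20a had 43023, 8123 and 6662 lysate reads. The others, Mirlet7d, Mir143 and Mir320, had 1436, 1395 and 459 lysate reads. Mir34c had 78133 FPKM in the ACR IP and 8198840 FPKM in the lysate, which is 41 reads in the ACR IP and 43023 reads in the lysate. It alone supplied 41 of the 294 ACR IP reads, and without it the pooled rate was 1.81 reads per 1000 lysate reads (1.60 to 2.05). Mir449a had 20 ACR IP reads and 8123 lysate reads, a rate of 2.46 per 1000 (1.504 to 3.80). Mir34b, which shares its seed with Mir449a and its primary transcript with Mir34c, had 4 ACR IP reads and 8430 lysate reads, a rate of 0.474 per 1000 (0.129 to 1.21). Mir34a had 6 ACR IP reads and 2350 lysate reads, while Mir449b and Mir449c were listed at 0 in the ACR IP with 8 and 184 lysate reads. The 6 family members together had 71 ACR IP reads and 62118 lysate reads, a rate of 1.14 per 1000 (0.893 to 1.44). Within this family the intervals of Mir449a and Mir34b did not overlap.

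The let-7 family showed a spread of the same kind. Mirlet7d had 8193 FPKM in the ACR IP and 106957 FPKM in the lysate, from 11 ACR IP reads and 1436 lysate reads, a rate of 7.66 per 1000 (3.82 to 13.7). Mirlet7g had 7 ACR IP reads and 4857 lysate reads, a rate of 1.44 per 1000 (0.579 to 2.97). Mirlet7b also had 7 ACR IP reads, with 3702 lysate reads. Mirlet7i had 2 ACR IP reads and 1663 lysate reads, and Mirlet7e had 3 ACR IP reads and 350 lysate reads. The other 7 of the 12 let-7 genes were listed at 0 in the ACR IP, with 16 to 113 lysate reads each. Of these only Mirlet7f-1, with 16 lysate reads, would have had fewer than 3 ACR IP reads at equal FPKM. None of the 7 had an interval below the pooled microRNA rate of 1.61 per 1000. Copies such as Mirlet7a-1 and Mirlet7a-2 give the same mature microRNA, and no source used here says how reads were shared out among copies.

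In the miR-17-92 group, whose members are known for promoting cell proliferation, 4 of 13 genes were above 0. Mir20a had 12 ACR IP reads and 6662 lysate reads, and Mir17 had 4 ACR IP reads and 1489 lysate reads. Mir18 had 1 ACR IP read and 2816 lysate reads, and Mir106b had 1 ACR IP read and 341 lysate reads. Mir93, with the seed of Mir17 and Mir20a, was listed at 0. The group as a whole had 18 ACR IP reads and 16765 lysate reads, a rate of 1.07 per 1000 (0.636 to 1.70).

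The lowest rate among the microRNA lists belonged to Mir191 and Mir425. Mir191 had 2163 FPKM in the ACR IP and 1611530 FPKM in the lysate, the lowest ratio of all microRNA genes above 0 (log2 −9.54), from 1 ACR IP read and 7450 lysate reads. With Mir425 at 0, the pair had 1 ACR IP read and 12403 lysate reads, a rate of 0.081 per 1000 (0.002 to 0.449). At equal FPKM, 745 ACR IP reads would have been found for Mir191 and 495 for Mir425. In the separately scaled table of the pellet fraction, which uses the same lysate library, the authors' pellet value of Mir191 was 106654 FPKM against 1850190 FPKM in the lysate.

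At the other end stood microRNAs with moderate lysate reads. Mir320, made from a short capped hairpin without the usual nuclear cleavage, had 15584 FPKM in the ACR IP and 71530 FPKM in the lysate, from 10 ACR IP reads and 459 lysate reads, a rate of 21.8 per 1000 (10.4 to 40.1). Mir10a, encoded in a Hox cluster, had 5 ACR IP reads and 186 lysate reads, a rate of 26.9 per 1000 (8.73 to 62.7). Mir100 had 7 ACR IP reads and 636 lysate reads, and Mir125a had 5 ACR IP reads and 694 lysate reads. The miR-10, miR-99 and miR-125 family of 8 genes had 22 ACR IP reads and 5718 lysate reads, a rate of 3.85 per 1000 (2.41 to 5.83). Its interval lies above that of the miR-34 and miR-449 family, although Mir10b, the member with 1432 lysate reads, was listed at 0. These genes were picked out for their values, so the intervals describe them and test nothing.

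A few microRNA genes came near equal FPKM, each on 1 to 3 ACR IP reads. Mir205, an epithelial microRNA, had 8493 FPKM in the ACR IP and 7926 FPKM in the lysate, from 3 ACR IP reads and 28 lysate reads. Mir122a, the liver microRNA, was the 1 microRNA gene at least 2-fold higher in the ACR IP, with 3113 FPKM there and 623 FPKM in the lysate, which is 1 read in the ACR IP and 2 reads in the lysate. The counting interval of its log2 ratio ran from −3.56 to 6.59. Mir2137, Mir154, Mir219-1 and Mir33 lay within 2-fold of the lysate on 1 or 2 ACR IP reads.

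The other microRNA lists had few to moderate ACR IP reads. The X-linked testis cluster, expressed in the germ line, had 28 ACR IP reads and 17458 lysate reads over 16 genes, a rate of 1.60 per 1000 (1.07 to 2.32). In it, Mir880 and Mir871 had 5 ACR IP reads each, with 1984 and 1392 lysate reads, while Mir741 had 2 ACR IP reads and 3849 lysate reads. The miR-15 and miR-16 family had 20 ACR IP reads and 14210 lysate reads, and the miR-30 family had 10 ACR IP reads and 5302 lysate reads. The miR-29 family had 8 ACR IP reads, all of Mir29a, and 4693 lysate reads. The miR-200 family had 1 ACR IP read and 395 lysate reads, a rate of 2.53 per 1000 (0.064 to 14.1). The miR-181 family had 3 ACR IP reads and 244 lysate reads, a rate of 12.3 per 1000 (2.54 to 35.9). The list named for tRNA-like microRNA entries, 4 genes here, had 3 ACR IP reads and 135 lysate reads. Its rate was the highest of the lists, at 22.2 per 1000 (4.58 to 64.9). Mir2137 gave 2 of these ACR IP reads with 24 lysate reads, and Mir1983 gave 1 with 41 lysate reads. Mir720 and Mir2145-2 were listed at 0, with 42 and 28 lysate reads. Whether each entry is tRNA-like was not checked.

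MicroRNAs of blood, vessel wall and Sertoli cells, which lie outside the germ line, were also present. The 8 genes of this list had 22 ACR IP reads and 8254 lysate reads, a rate of 2.67 per 1000 (1.67 to 4.04). Mir143, a smooth muscle microRNA, had 10 ACR IP reads and 1395 lysate reads, and Mir145, its neighbour, had 3 ACR IP reads and 292 lysate reads. Mir451, of red blood cells, had 6 ACR IP reads and 3393 lysate reads. Mir126, of vessel endothelium, had 2 ACR IP reads and 695 lysate reads. Mir202, a microRNA of the gonads, had 1 ACR IP read and 1950 lysate reads, a log2 ratio of −7.61 and the lowest of the list above 0. Mir142, of leukocytes, was listed at 0 in the ACR IP with 335 lysate reads, as were Mir144, of red blood cells, with 161 lysate reads and Mir150, of lymphocytes, with 33 lysate reads. The part of such cells in the ACR IP was not tested.

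**Figure D3:**
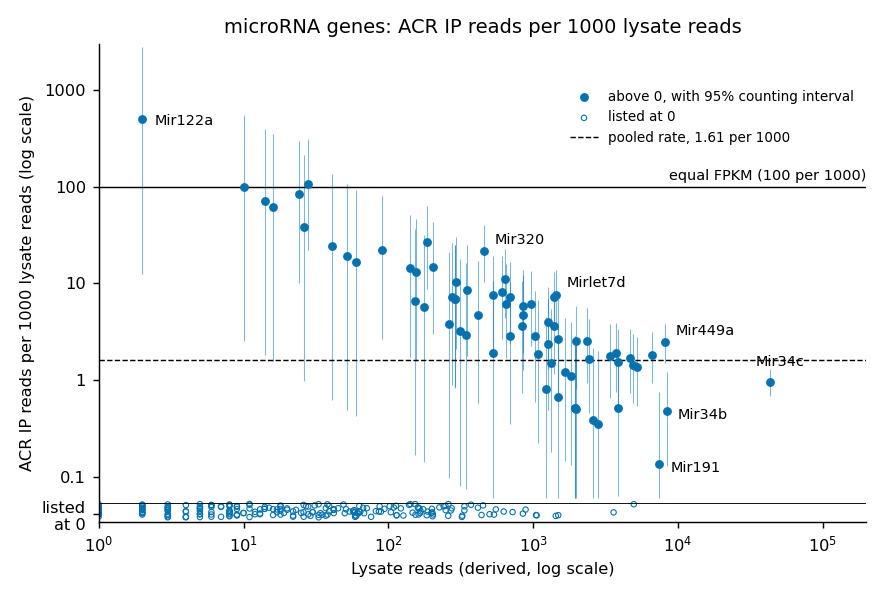
ACR IP reads per 1000 lysate reads (log axis) against lysate reads (log axis) for the microRNA genes with derived reads, 1 filled point per gene above 0 with its exact Poisson 95% interval, cut at the lower edge of the plot, and open points for genes listed at 0. The dashed line is the pooled rate of 1.61 per 1000 and the solid line is equal FPKM; Mir34c, Mir34b and Mir191 lie below the pooled rate and Mir320 and Mirlet7d above it.

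The rate of microRNA genes differed between ranges of lysate depth, without a steady order. The 124 genes with fewer than 30 lysate reads had 10 ACR IP reads and 1164 lysate reads, a rate of 8.59 per 1000 (4.12 to 15.8), with 117 of them listed at 0. The 48 genes with 30 to 100 lysate reads had a rate of 1.93 per 1000 (0.627 to 4.503), and the 46 with 100 to 300 had 2.79 per 1000 (1.79 to 4.15). The 31 genes with 300 to 1000 lysate reads had 63 ACR IP reads and 17388 lysate reads, a rate of 3.62 per 1000 (2.78 to 4.64). The 25 genes with 1000 to 3000 lysate reads had a rate of 1.73 per 1000 (1.35 to 2.19). The 14 genes with 3000 or more lysate reads had 121 ACR IP reads and 111766 lysate reads, a rate of 1.08 per 1000 (0.898 to 1.29). Any gene listed above 0 with few lysate reads necessarily has a high rate, since 1 ACR IP read is the least that can be seen, but the pooled rates include the genes at 0.

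The piRNA clusters, long loci from which piRNA precursors are transcribed in spermatocytes and spermatids, had a lower pooled rate. Reads could be derived for 152 of the 154 clusters whose locus is not shared with another feature. The other 2, cluster 29, with 4.09 FPKM in the ACR IP and 499.98 FPKM in the lysate, and cluster 48, with 15.0 FPKM in the ACR IP and 2183 FPKM in the lysate, came out more than 0.05 reads from a whole number. The 152 clusters had 6765 ACR IP reads and 8174431 lysate reads, a rate of 0.828 per 1000 (0.808 to 0.848). Cluster 177 alone supplied 2017 of those ACR IP reads. Without it the other 151 clusters had 4748 ACR IP reads and 8130296 lysate reads, a rate of 0.584 per 1000 (0.567 to 0.601). The microRNA rate was 2.76 times that rate (exact 95% counting interval 2.44 to 3.10), 3.11 times without Mir34c, and 1.95 times with cluster 177 counted in. That comparison does not depend on how the columns are scaled.

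Clusters 128, 165 and 196, which had many reads, lay close together. Cluster 128, which spans chr11:107794701-108205202 in mm9, had 10.6 FPKM in the ACR IP and 1793 FPKM in the lysate, from 1748 ACR IP reads and 2961282 lysate reads, a rate of 0.590 per 1000 (0.563 to 0.619). Cluster 165 had 286 ACR IP reads and 527479 lysate reads, a rate of 0.542 per 1000 (0.481 to 0.609). Cluster 196 had 208 ACR IP reads and 352260 lysate reads, a rate of 0.590 per 1000 (0.513 to 0.676). Over the 66 clusters with 10000 or more lysate reads, cluster 177 left out, the rate ran from 0.131 to 1.33 per 1000. Its median was 0.569 per 1000, and the quartiles of the log2 ratio were −7.73 and −7.25. The exact interval of 5 of these 66 clusters lay above the pooled rate of 0.584 per 1000 and that of 6 below it. For the 39 microRNA genes with 1000 or more lysate reads, the mark was the pooled rate of all microRNA genes, 1.61 per 1000. The interval of 2 of them lay above that mark and that of 5 below it. The clusters, which have many more reads, are thus not shown to be more alike than the microRNA genes. Over lysate depth, the 29 clusters with fewer than 1000 lysate reads had a rate of 0.243 per 1000 (0.066 to 0.623), with 26 of them at 0, and the 23 with 1000 to 3000 had 0.724 (0.502 to 1.01). The rate was 0.557 per 1000 in the 33 clusters with 3000 to 10000 lysate reads, 0.592 in the 28 with 10000 to 30000, and 0.587 in the 16 with 100000 or more. The 23 clusters with 30000 to 100000 lysate reads, among them cluster 177, had 2.11 per 1000. Neighbouring loci did not always have the same value, since cluster 8 had 108 ACR IP reads and 106443 lysate reads, a rate of 1.01 per 1000 (0.832 to 1.23), and cluster 9, which begins just beyond it on chromosome 2, had 175 ACR IP reads and 294441 lysate reads, a rate of 0.594 per 1000 (0.510 to 0.689).

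Cluster 177 stood apart from the others. Its class is only the name given in the deposited data, and whether its reads are piRNAs was not tested. This short locus, at chr17:39983505-39984882 in mm9, had 4257 FPKM in the ACR IP and 9316 FPKM in the lysate, a log2 ratio of −1.13, from 2017 ACR IP reads and 44135 lysate reads. Its rate of 45.7 per 1000 (43.7 to 47.7) was the highest of all clusters with derived reads. In the separately scaled pellet table, which uses the same lysate library, the authors' pellet value was 11581 FPKM against 11080 FPKM in the lysate, whereas for cluster 128 it was 383 FPKM against 2060 FPKM in the lysate. Next after it came cluster 39, with 299.7 FPKM in the ACR IP and 3727 FPKM in the lysate (log2 −3.64), on a locus that it shares with another feature. Cluster 163 followed, with 2 ACR IP reads and 358 lysate reads.

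At the low end the clusters rested on 1 or 2 ACR IP reads. Cluster 197 had 0.926 FPKM in the ACR IP and 705 FPKM in the lysate, from 2 ACR IP reads and 15239 lysate reads, a log2 ratio of −9.57. Cluster 178 had 2 ACR IP reads and 12982 lysate reads, and cluster 143 had 1 ACR IP read and 5107 lysate reads. Of the 40 clusters with derived reads that were listed at 0, all would have had 3 or more ACR IP reads at equal FPKM. The largest of these were cluster 5, with 4783 lysate reads, cluster 139, with 3700 lysate reads, and cluster 130, with 3682 lysate reads. None of the clusters at 0 had an interval below the pooled rate of 0.584 per 1000. Their zeros are thus not shown to be lower than the rate of the other clusters.

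**Figure D4:**
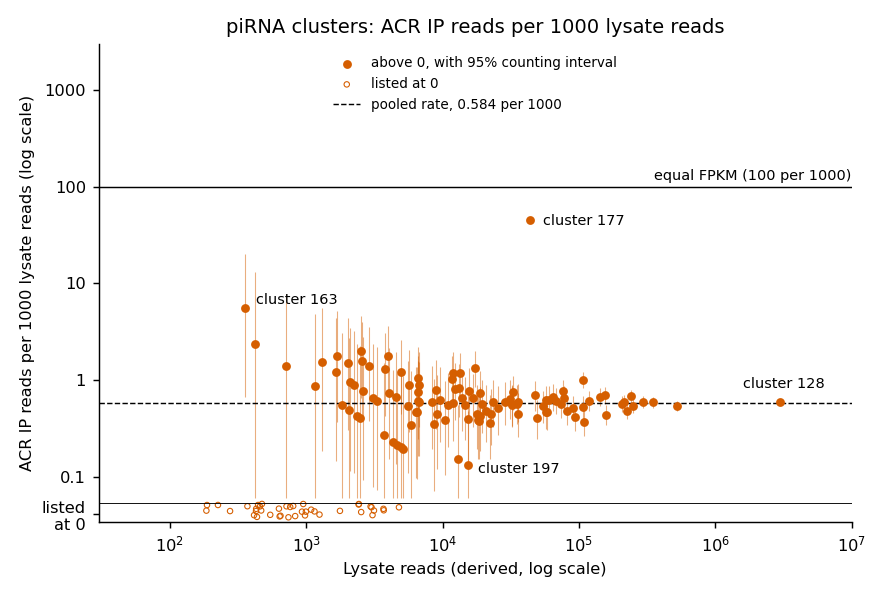
ACR IP reads per 1000 lysate reads (log axis) against lysate reads (log axis) for the 152 piRNA clusters with derived reads, 1 filled point per cluster above 0 with its exact Poisson 95% interval, cut at the lower edge of the plot, and open points for the 40 clusters listed at 0. The points close in on the dashed line, 0.584 per 1000, as lysate reads rise, and cluster 177, at 45.7 per 1000, lies far above it.

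Small structured RNA genes were almost all at 0. Snord2, a small nucleolar RNA that guides methylation of ribosomal RNA, had 2831 FPKM in the ACR IP and 277707 FPKM in the lysate, from 1 ACR IP read and 981 lysate reads. Rnu12 and Rnu11, RNAs of the minor spliceosome, were listed at 0 in the ACR IP with 1317 and 241 lysate reads. Rnu1b2 had 2.56 FPKM in the ACR IP and 706 FPKM in the lysate. Of the 48 C/D box small nucleolar RNA genes, 47 were listed at 0, and of the 31 H/ACA, Cajal and other structured RNA genes, 30 were. Those shares, 97.9% and 96.8%, stand beside 64.7% over all features. The structured RNA genes with derived reads had a median of 8 lysate reads. Their pooled rate was 0.293 per 1000 (0.007 to 1.63), an interval that holds the pooled rates of microRNA genes and of piRNA clusters. Of the 76 structured RNA genes at 0 with derived reads, 66 would have had fewer than 3 ACR IP reads at equal FPKM, so a lower level was not detectable for them at this depth.

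Named genes other than small RNA genes gave 28 of the 36 features that were at least 2-fold higher in the ACR IP. In this class the small RNA fraction holds short pieces of longer transcripts, so the values do not measure intact mRNA. Apoe, the lipid-carrying apolipoprotein, had 804 FPKM in the ACR IP and 5.44 FPKM in the lysate, a 148-fold difference and the highest ratio of all features. Plekhg4, a guanine nucleotide exchange factor, had 1551 FPKM in the ACR IP and 34.8 FPKM in the lysate. Smc6, a subunit of the SMC5/6 complex of DNA repair, had 1154 FPKM in the ACR IP and 26.6 FPKM in the lysate. Cacna1d, a voltage-gated calcium channel subunit, had 322 FPKM in the ACR IP and 5.07 FPKM in the lysate.

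Other genes of this set had further roles. 2410003K15Rik, an uncharacterised transcript, had 1029 FPKM in the ACR IP and 30.6 FPKM in the lysate, and 2310050B05Rik had 208 FPKM in the ACR IP and 6.24 FPKM in the lysate. Prodh2, a mitochondrial enzyme of hydroxyproline breakdown, had 274 FPKM in the ACR IP and 10.6 FPKM in the lysate. Snrnp48, a protein of the minor spliceosome, had 372 FPKM in the ACR IP and 18.0 FPKM in the lysate. Among the 28 genes, 13 had 100 FPKM or more in the ACR IP, and the 28 held 80.6% of the summed ACR IP FPKM of the 889 named genes. With the length of the longest annotated transcript, which gives an upper estimate, Smc6 had about 2509 ACR IP reads and 579 lysate reads, Plekhg4 about 2892 and 650 reads in the ACR IP and lysate, and Smcr8, part of a complex with C9orf72, about 400 and 441 reads in the ACR IP and lysate. Smc6 and Plekhg4 thus had more reads in the ACR IP than in the lysate, and Smcr8 slightly fewer. Plekhg4 and 2310050B05Rik lie on loci shared with other features, so their values are uncertain.

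For 31 of the 36 higher features the ratio itself gave the reads in lowest terms, with no length needed, within a relative tolerance of 1e-05 and with up to 100 lysate reads tried. Plekhg4, Cacna1d, Snrnp48, Lrfn1 and Smcr8 gave none. For Apoe it came to 340 ACR IP reads for 23 lysate reads, the smallest pair found. For Myeov2 it came to 3 ACR IP reads for 4 lysate reads, for Tmsb15a to 2 for 3, and for Eif1b to 1 for 5. A ratio in lowest terms is the smallest pair of whole reads that gives it, and multiples of it give the same ratio. Of the 22 higher genes with an annotated transcript, 10 had 100 or more ACR IP reads on the longest transcript and 6 had 10 or fewer.

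**Figure D5:**
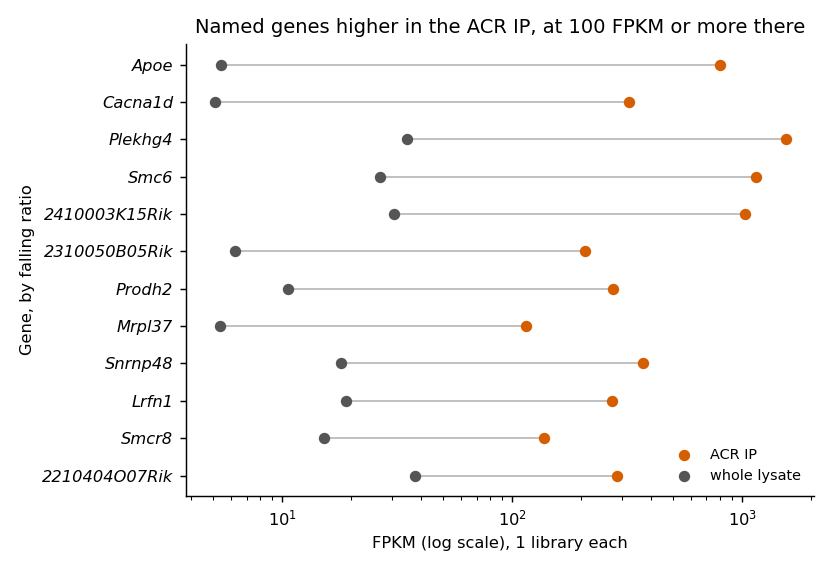
FPKM (log axis) in the ACR IP and in the whole lysate, 1 library each, for 12 of the 13 named genes with a ratio of at least 2 and 100 FPKM or more in the ACR IP, ordered from the highest ratio at the top. Apoe has the widest gap, 804 FPKM in the ACR IP and 5.44 FPKM in the lysate, and Plekhg4 the highest ACR IP value, 1551 FPKM.

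The same genes can be set beside the pellet and the MVH IP, whose values come from separately scaled tables, the pellet one with the same lysate library. The authors' pellet value of Smc6 was 82.1 FPKM against 34.4 FPKM in that table's lysate column, and its MVH IP value was 1528 FPKM. For Plekhg4 the pellet value was 80.4 FPKM against 41.4 FPKM in the lysate, and the MVH IP value was 1182 FPKM. For Apoe the pellet value was 7.01 FPKM against 7.02 FPKM in the lysate, and the MVH IP value was 152 FPKM. Tmsb15a and Klhl10, a cullin adaptor of spermatids, were at 48.7 and 28.8 FPKM in the ACR IP, against 0.860 and 0.891 FPKM in the pellet, and their lysate values in the ACR IP table were 7.31 and 5.21 FPKM. No MVH IP signal was listed for Tmsb15a (0), and Klhl10 had 3.84 FPKM there.

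The lowest ratios among named genes belonged in part to loci that overlap piRNA clusters. D130017N08Rik, on a locus shared with a piRNA cluster, had 4.69 FPKM in the ACR IP and 2415 FPKM in the lysate, a log2 ratio of −9.01. Zfp389 and 1700020N18Rik, at −7.65 and −7.61, also overlap a cluster. Of the 889 named genes, 11 overlapped a cluster of the table, and of these 7 were lower and 4 listed at 0 (63.6% and 36.4%). Of the named genes without such an overlap, 26.2% were lower and 64.2% listed at 0, and over all features the shares were 29.0% and 64.7%. Without such an overlap, Cdc42ep3, an effector of the GTPase CDC42, had 1.41 FPKM in the ACR IP and 572 FPKM in the lysate (log2 −8.67). No source used here says how reads were divided between overlapping features.

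The median ratio of named genes above 0 was lower where the lysate value was higher, an order that the detection limit sets in part. In the 483 genes with 5 to 10 FPKM in the lysate, 19 were higher, 103 lower and 322 listed at 0, with a median log2 ratio of −1.66 above 0. At the median of 65.2 lysate reads of that range, by the longest transcript, 1 ACR IP read already gives a log2 ratio of −2.70, so lower ratios could hardly be seen there. In the 31 genes with 100 FPKM or more, none were higher, 19 were lower and 11 were listed at 0, with a median of −6.65, and 1 ACR IP read at the median depth gives −8.23. Of the 503 named genes listed at 0 that have an annotated transcript, 79 would have had fewer than 3 ACR IP reads at equal FPKM by the longest transcript, and 424 would have had 3 or more.

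Transcripts on the late spermatid list, some of them for packaging the sperm nucleus or building the tail, were mostly at 0. The list also holds Ldhc and Pgk2, which serve as spermatocyte markers too. Of the 22 genes on it, 18 were listed at 0 in the ACR IP. Among them were Prm1, a protamine, with 347 FPKM in the lysate, and the transition proteins Tnp1 and Tnp2, with 195 and 122 FPKM in the lysate. Prm2, the other protamine, had 6.04 FPKM in the ACR IP and 237 FPKM in the lysate, and Oaz3, an antizyme, had 13.3 FPKM in the ACR IP and 22.9 FPKM in the lysate. In such bulk samples fewer cells of a type and less RNA per cell cannot be told apart. The share at 0 was 81.8% (exact binomial 95% interval 59.7 to 94.8), an interval that holds the 64.7% over all features.

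The list drawn up for the acrosome, the compartment of the antibody's target, had 3 of 6 genes listed at 0, none higher and 2 lower. That is near the 64.7% at 0, 2.3% higher and 29.0% lower over all features. Whether each protein of the list, Ropn1 among them, lies in the acrosome was not checked. Acrbp, which binds proacrosin, had 7.04 FPKM in the ACR IP and 8.43 FPKM in the lysate. Actl9 had 6.38 FPKM in the ACR IP and 14.04 FPKM in the lysate, and Crisp2 had 2.06 FPKM in the ACR IP and 26.1 FPKM in the lysate. Spink2, Ropn1 and Acrv1 were listed at 0 in the ACR IP, with 20.5, 6.18 and 5.56 FPKM in the lysate. Acr itself is not analysed here.

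Genes of chromatoid body and piRNA pathway proteins had 5 of 8 listed at 0 and 3 lower (62.5% and 37.5%), near the 64.7% and 29.0% over all features. Those at 0 in the ACR IP were Eif2c2 (Argonaute 2), with 66.5 FPKM in the lysate, Ddx25, a spermatid helicase, with 27.6 FPKM, and the PIWI genes Piwil1 and Piwil2, with 12.015 and 10.65 FPKM, and Mael, with 7.94 FPKM. Ybx2, a germ cell Y-box RNA-binding protein, had 1.82 FPKM in the ACR IP and 16.0 FPKM in the lysate. Pld6, a piRNA biogenesis factor of the mitochondrial surface, had 3.17 FPKM in the ACR IP and 8.24 FPKM in the lysate.

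Ribosomal protein genes, used by all cells, had 33 of 43 listed at 0, 5 lower and none higher. The share at 0 was 76.7% (61.4 to 88.2), an interval that holds the 64.7% over all features, and 11.6% were lower (3.89 to 25.1), against 29.0% over all features. Rps15 had 7.74 FPKM in the ACR IP and 401 FPKM in the lysate, and Rps21 had 13.1 FPKM in the ACR IP and 79.7 FPKM in the lysate. Rpl38 had 27.7 FPKM in the ACR IP and 33.2 FPKM in the lysate. Of 12 histone genes 10 were listed at 0, among them Hist1h2ba, a testis-specific H2B gene, with 239 FPKM in the lysate, and the interval of that share (51.6 to 97.9%) also holds 64.7%. Malat1, a nuclear long non-coding RNA, had 0.366 FPKM in the ACR IP and 10.1 FPKM in the lysate. Of the translation factors Eef2 had 4.29 FPKM in the ACR IP and 8.83 FPKM in the lysate, and Eef1a1 was listed at 0 in the ACR IP with 8.76 FPKM in the lysate.

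Markers of other testis cells were scarce at the floor. None of the spermatogonial, Sertoli cell or peritubular, vessel and blood cell genes of the lists reached 5 FPKM in the lysate. Of the Leydig cell genes, Insl3, a peptide hormone, did, with 28.3 FPKM in the lysate, and it was listed at 0 in the ACR IP. The spermatocyte list, from which Ldhc and Pgk2 were left out, had 3 genes at the floor. Tex101 and Stag3 were listed at 0 in the ACR IP, and Mns1 had 1.55 FPKM in the ACR IP and 5.72 FPKM in the lysate.

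Among assembled transcripts 7 were at least 2-fold higher in the ACR IP. Cuff.1088, at chr12:59052259-59052510 in mm9, had the highest ACR IP value of them, 3228 FPKM in the ACR IP and 108 FPKM in the lysate, and its ratio came to 3 ACR IP reads for 1 lysate read in lowest terms. Cuff.3159 had 729 FPKM in the ACR IP and 18.2 FPKM in the lysate, or 4 ACR IP reads for 1 lysate read. Cuff.1417 had 282 FPKM in the ACR IP and 20.1 FPKM in the lysate. The pellet table listed Cuff.1088 at 0, and Cuff.3159 at 106 FPKM in the pellet against 36.2 FPKM in the lysate. At the other end, Cuff.2814 was listed at 0 in the ACR IP with 13936 FPKM in the lysate, and Cuff.2816 had 21.0 FPKM in the ACR IP and 3466 FPKM in the lysate (log2 −7.37).

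The lysate column itself varied between tables. Its values in the pellet table were 1.15 times those in the ACR IP table at the median, and 0.482 times in the supernatant table, so the scale was set table by table. After removing that median, 106 of 1562 features with a lysate value in both the ACR IP and pellet tables differed by more than 1.5-fold, of which 45 were microRNA genes. Mir125b-2, with 2468 FPKM in the ACR IP and 12832 FPKM in the lysate here, has a near-identical copy, and its ratio is uncertain for that reason.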

How the data were processed

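The authors deposited 1 table with an FPKM column for the ACR IP library and 1 for the lysate library; per the submitters' processing notes TopHat, Cuffdiff and the mouse build mm9 were used, with versions and settings not stated in what was used here. In the listed rows at least 1 of the FPKM values is about 4.53 or more, with 4 exceptions. The lysate floor of 5 FPKM was therefore set above that level. Reaching that level does not assure a row, since features at a matching lysate floor in the pellet table were absent. A further 1 column, of long RNA, in the MVH IP table was not used. Loci are given in mm9.

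Ratios were taken without a pseudocount, and features listed at 0 were counted apart. Reads were derived by dividing FPKM times effective length by the value of 1 read; effective length assumed fragments of 200 nt on average (SD 80), from 15 nt up, which is the setting under which the values came out whole. With that unit moved by 1%, 22 of 71 microRNA values in the ACR IP and 13 of 202 in the lysate were whole. The derivation was checked on simulated reads. Lengths came from RefSeq hairpins of the same symbol (242 of 291 microRNA genes), from the feature's own locus or from small RNA genes; for 788 of 889 named genes the longest GENCODE transcript gave an upper estimate. Since 1 library stands in each group, no test was made; intervals are exact Poisson or binomial at 95%. Python 3.11.15, numpy 2.4.6, pandas 2.3.3 and scipy 1.17.1 were used.

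The features and gene lists were chosen with earlier results of these data known. In each class the text names features among the 8 highest and 8 lowest ratios above 0, the 6 with the highest lysate value among those at 0, the 6 with the highest ACR IP value, and of each gene list the 6 members with the highest lysate value. The microRNA genes and piRNA clusters with many reads, the further genes that were higher, further list members and cluster 8 were named after their values were seen. 1 of the higher genes is not reported here.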

Additional observations from a re-analysis of the deposited data

How the results depend on the processing

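No paired analysis was possible because each group has 1 library, so no replicate could be left out either, and no status column was there to select rows by. Medians are log2 ratios. With a lysate floor of 2, 10 or 50 FPKM, the median of all features was −2.75, −5.42 or −7.00 and that of named genes −1.50, −3.29 or −6.23. With features listed at 0 included and a pseudocount of 1 FPKM, the medians were −3.95 for all features, −10.41 for microRNA genes, −7.20 for piRNA clusters and −3.07 for named genes; with 0.1 FPKM they were −6.76, −13.73, −7.51 and −6.11. The pseudocount thus turned the order of microRNA genes and piRNA clusters. Scaled to the same sum, 21.7% of features were higher and 8.25% lower and above 0, and the medians, added after seeing the data, turned to 2.28 for all features, 1.21 for microRNA genes and 3.54 for named genes, with −1.48 for piRNA clusters. Centred on the median, 12.9% and 14.4% were higher and lower, with 1.26 for named genes, −1.07 for microRNA genes and −3.75 for piRNA clusters. A 4-fold threshold left 25.4% lower. Without features on fewer than 3 derived ACR IP reads, 26.5% were lower and 67.3% listed at 0. On loci of at least 200 bp, 85.1% of microRNA genes were listed at 0. With the lysate column of the supernatant table the medians were −2.70 for all features, −3.74 for microRNA genes, −6.35 for piRNA clusters and −1.38 for named genes, with 3.52% higher and 25.5% lower. With that of the pellet table the medians of all features and of piRNA clusters were −3.95 and −7.61. The cause of these shifts was not tested, beyond what each setting changes by construction. Apart from those 2 scalings, no median changed sign. Leaving out rows whose lysate value differs between tables, rows on shared loci, or cluster 177, the last 2 chosen after seeing the data, moved no median or share beyond its own 95% interval. Depth limits the zeros: 117 of the 217 microRNA genes and 66 of the 76 structured RNA genes at 0 with derived reads could not have shown a lower level.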

Other observations

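Outside the lysate floor, 979 rows had less than 5 FPKM in the lysate. Of these 930 had the higher value in the ACR IP and 38 were listed at 0 there, a split that the listing sets in part, since a row with a low lysate value is listed where its ACR IP value is high. Of 116 rows with 2 to 4.5 FPKM in the lysate, 0 were listed at 0 in the ACR IP, against 78 of 138 rows with 5 to 6 FPKM in the lysate. In the pellet table, 2105 features reached the matching lysate floor, and 506 of them, with 61 microRNA genes and 0 piRNA clusters, had no row in the ACR IP table as used here.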
